A study of Mus musculus with 16 samples.

Results

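The 33 genes described here encode the granule proteins, cytosolic proteins, surface receptors and transcription factors that mark neutrophil granulocytes and their precursors. They were taken by gene symbol from a list ordered by stage of granulocyte development. The list itself uses no measured value, but it was chosen with earlier results of these libraries known. All 33 were among the 55487 genes of the deposited count table, and 33 passed the filter on low counts, which left 14435 genes for testing. Of these 33, 25 would have passed on the 10 libraries from spleen alone. The other 8 (Prss57, Olfm4, Padi4, Ly6g, Itgb2l, Mcemp1, Cebpa and Gfi1) passed only through the bone marrow libraries, which favours a higher level there. In the comparisons between tissues, and for doxycycline in bone marrow, counts are also given for the 25.

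RNA of mouse leukaemia cells carrying the CBFB::MYH11 fusion and GFP was sequenced in 16 libraries after a sort for GFP. According to the design text, the cells held an shRNA against MYH11 that doxycycline switches on, and had been transplanted into congenic mice. The study asked whether leukaemia cells in bone marrow and in spleen depend alike on the fusion. For 7 days, engrafted mice were given drinking water containing 5% sucrose, with or without 3 mg/ml doxycycline. Each tissue, bone marrow or spleen, gave 3 control and 3 doxycycline libraries. A further 4 libraries, named secondary disease, are of leukaemia cells sorted from spleen in another cohort, kept on doxycycline until the mice fell fatally ill. The labels describe the control cells only as expressing the fusion and the doxycycline cells as shRNA-transduced, whereas the design text has the shRNA in both. Because doxycycline was always given to shRNA-bearing cells, the drug and the knockdown cannot be told apart. Samples are numbered, but no label ties a number to an animal or culture of its own. P-values therefore describe the spread among these libraries only, which may be technical.

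Total counts ran from 12.26 to 39.42 M per library. Mouse Myh11 had 0 to 9 expected counts in each of the 16 libraries, and no source used here says whether reads of the fusion were counted there. The knockdown could therefore not be checked on it. Among progenitor markers of the leukaemia, Kit (54.1 to 270 CPM) and Il1rl1 (143 to 2090 CPM) were present in every library, whereas Cd34 and Flt3 did not exceed 0.897 and 3.04 CPM. CPM is the usual count relative to the library total, here scaled between libraries by the TMM method. Some libraries stood apart from their groups. Spleen doxycycline replicate 1 had a summed level of 9 erythroid markers of 5700 CPM, against 41100 and 86800 CPM in the other spleen doxycycline libraries and 2930 to 5000 CPM in the spleen controls. Spleen doxycycline replicate 2 had the lowest Il1rl1, 143 CPM, against 1450 and 1600 CPM in replicates 1 and 3. The spleen doxycycline libraries thus all differed from one another. Secondary disease replicate 4 had the smallest total and the highest sum of 14 monocyte and macrophage markers, 148 CPM.

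Neutrophils fill their granules in sequence. Primary granules with myeloperoxidase and serine proteases are made in promyelocytes, secondary granules with lactoferrin in myelocytes, and gelatinase granules later still. The transcription factors C/EBPα, C/EBPε and GFI1 drive these steps, and the CBFB::MYH11 fusion is known to disturb RUNX1 with its partner CBFβ and to hold myeloid cells at an early stage. In sorted bulk samples, fewer cells of a type and less RNA per cell cannot be told apart.

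Sequence around the transcription start was searched for the letters of 3 motifs. RefSeq promoters (build GRCm38.p6, 250 bases before to 50 after the start) were matched for 29 of the 33 genes. Cebpe, Hp, Mmp9 and Prss57 had no entry in the table. Both strands were searched for the letters TGTGGT (a RUNX motif), TTGCNNAA (C/EBP) and GAGGAAG (PU.1). The RUNX letters were found in 6 of 29 promoters against 16.8% of 32851 mouse promoters, the C/EBP letters in 11 of 29 against 10.8%, and the PU.1 letters in 13 of 29 against 13.6%. At least 1 of the 3 was found in 23 of 29 against 35.8% of all promoters, and none of the matches in these genes overlapped a match of another motif. For these genes 1 promoter per gene was counted, whereas the shares run over all 32851 promoters, of which a gene can have several. A match is a description of the letters and not a binding site. Whether the matches bear on the measured levels was not tested.

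Upstream sequence is printed for 4 members, as a pair from the primary granule neighbours Elane and Prtn3 and a pair from later stages, Ngp and S100a9, to show where the letters lie. Each runs 5′ to 3′ along the gene's own strand and leaves out bases that lie in annotated exons. Capitals mark matches on either strand. Elane and Prtn3 each have a PU.1 match, starting 85 and 95 bases before the start of transcription. Ngp has a C/EBP match at 138 bases before its start (a second, at 11 bases before, lies outside the printed run), and S100a9 has a C/EBP match at 236 and a RUNX match at 64 bases before its start.
Elane (chr10:79886062-79886246, plus strand): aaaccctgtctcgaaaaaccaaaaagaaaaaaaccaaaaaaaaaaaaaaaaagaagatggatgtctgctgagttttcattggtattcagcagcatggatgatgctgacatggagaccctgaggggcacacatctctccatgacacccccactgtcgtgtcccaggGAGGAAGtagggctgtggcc
Prtn3 (chr10:79879417-79879613, plus strand): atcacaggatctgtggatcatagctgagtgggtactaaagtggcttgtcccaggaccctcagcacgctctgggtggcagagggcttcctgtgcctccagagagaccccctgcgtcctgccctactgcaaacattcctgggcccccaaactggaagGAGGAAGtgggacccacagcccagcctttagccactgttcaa
Ngp (chr9:110419558-110419746, plus strand): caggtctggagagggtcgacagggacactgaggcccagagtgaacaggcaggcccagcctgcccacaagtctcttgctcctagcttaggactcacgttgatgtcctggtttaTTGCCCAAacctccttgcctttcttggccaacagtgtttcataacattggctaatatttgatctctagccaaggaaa
S100a9 (chr3:90695722-90695971, minus strand): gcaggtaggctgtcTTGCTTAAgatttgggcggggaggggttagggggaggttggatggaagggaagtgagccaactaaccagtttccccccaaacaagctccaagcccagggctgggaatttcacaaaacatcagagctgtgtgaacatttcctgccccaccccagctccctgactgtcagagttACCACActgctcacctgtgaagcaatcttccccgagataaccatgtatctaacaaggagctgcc

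Granulocyte genes were most abundant in bone marrow control and lower in every other group. Their summed level was 1270 to 1840 CPM in bone marrow control, 456 to 927 CPM in bone marrow doxycycline, 80.8 to 248 CPM in spleen control, 46.9 to 223 CPM in spleen doxycycline and 8.62 to 89.9 CPM in secondary disease. By group means, 32 of 33 genes were highest in bone marrow control and 31 came second in bone marrow doxycycline. These counts describe the list only. They include the genes that passed the filter only through bone marrow, and the order was not counted over all genes. In 25 genes the full order was bone marrow control, then bone marrow doxycycline, followed by spleen control, spleen doxycycline and secondary disease. These are not the same 25 that would have passed the filter on spleen alone. Spleen control and spleen doxycycline, neighbours in that order, overlapped for most genes, as set out below. The other 8 were Mpo, Prss57, Olfm4, Retnlg, Csf3r, Cebpa, Cebpe and Gfi1. Of these, Cebpa had its highest mean in secondary disease, through replicate 4 alone. Cebpe had a mean in both spleen groups above that in bone marrow doxycycline, in spleen doxycycline through replicate 1 alone. The others of these 8 differed only in the order of the last 3 groups.

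**Figure D1:**
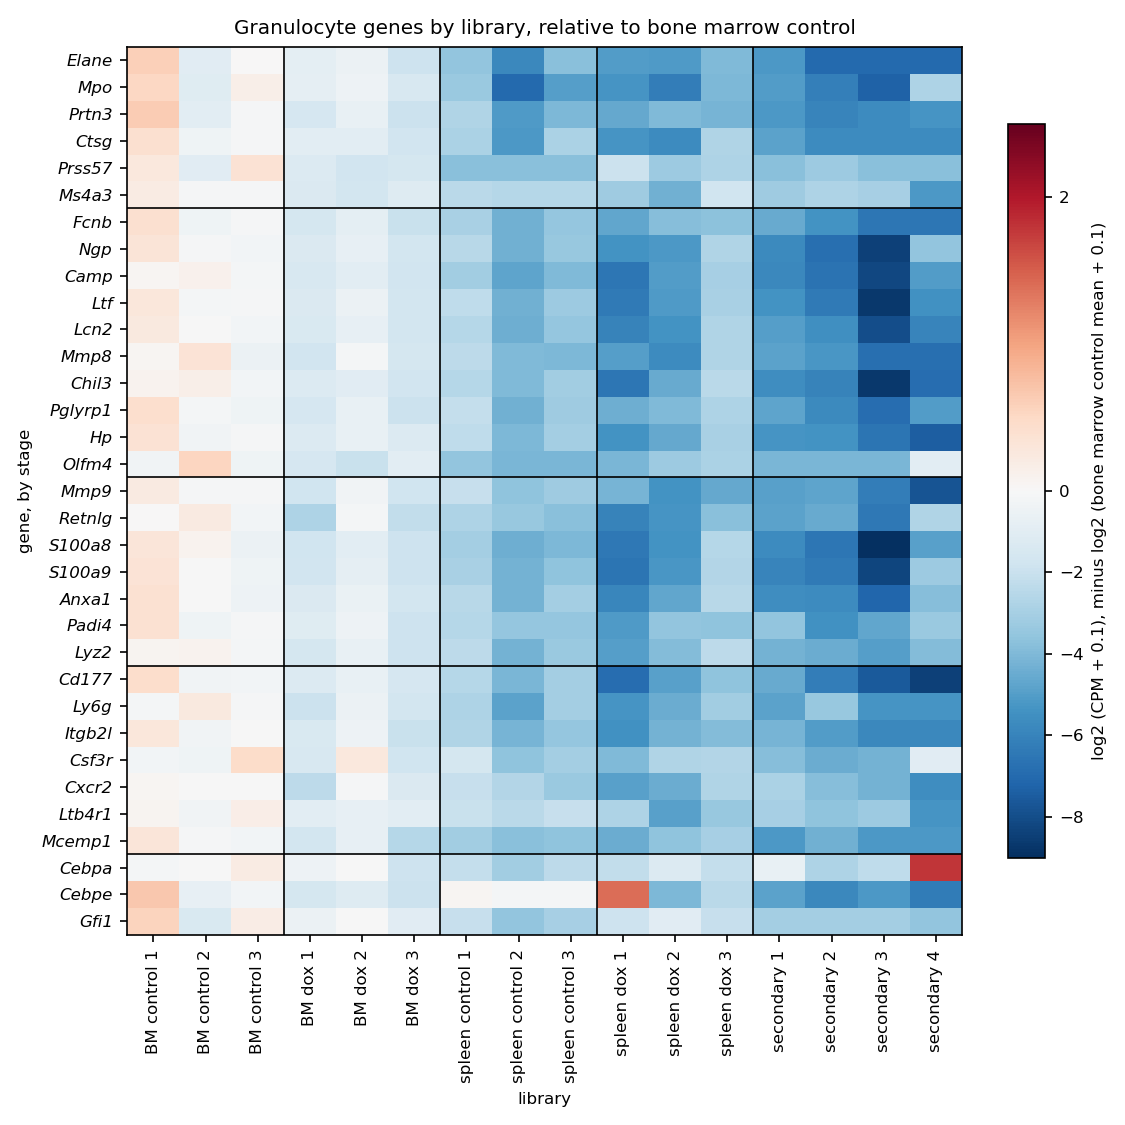
Level of the 33 genes (rows, by stage) in 16 libraries (columns, by group), as log2 of CPM plus 0.1 minus the log2 of the bone marrow control mean plus 0.1. Blue deepens from bone marrow doxycycline to spleen and secondary disease in most rows, while Cebpe stays near white in the spleen controls and is red in spleen doxycycline replicate 1, and Cebpa is red in secondary disease replicate 4.

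The genes also moved together within groups. Relative to its own mean in bone marrow control, the median gene stood at 122%, 90.9% and 91.4% in the 3 bone marrow control libraries and at 38.0%, 63.0% and 29.0% in bone marrow doxycycline. In spleen control it stood at 16.3%, 4.91% and 8.66%, in spleen doxycycline at 1.88%, 3.15% and 13.2%, and in secondary disease at 2.40%, 1.41%, 0.241% and 0.72%. A single library therefore tended to hold the highest value for most genes of its group. Spleen control replicate 1 was highest of its group for 33 of 33 genes (for Prss57 in a tie at 0), bone marrow doxycycline replicate 2 for 30 and spleen doxycycline replicate 3 for 25. Counts of genes passing a test are thus counts of correlated measurements.

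Averaged over control and doxycycline, 19 of the 33 genes were called higher in bone marrow than in spleen and 0 lower (edgeR quasi-likelihood test, adjusted p under 0.05), against 0.54% of all genes tested called higher. Among the 25 genes that would have passed the filter on spleen alone, 15 were called. The median log2 fold change of the 33 genes was 3.09 (3.08 for the 25), beside −0.01 over all genes tested. The other 4 called were Prss57, Padi4, Itgb2l and Mcemp1, which passed the filter only through bone marrow. By stage, calls among the 25 came from 3 of 5 primary, 7 of 9 secondary, 3 of 6 late and 2 of 4 surface genes, and 0 of 1 factor. The number called depended on single libraries: it was 0 to 2 when any 1 of the 6 bone marrow or the 3 spleen control libraries was left out, 14, 23 and 27 without spleen doxycycline replicates 1, 2 and 3, and 32 without secondary disease replicate 4. In these last 4 fits 0.475%, 1.54%, 0.85% and 2.54% of all genes were called higher, and 11, 18, 22 and 24 of the 25. The fold changes moved less, from 3.23 to 3.93 for Prtn3 over all 19 alternatives.

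In the controls alone, 24 of the 25 genes had all 3 bone marrow libraries above all 3 spleen libraries (32 of all 33), against 16.5% of all genes tested. Prtn3 was the 1 of the 25 that was called, against 0.111% called higher among all genes. Prss57 was called as well but passed the filter only through bone marrow. An unadjusted p under 0.05 was found for 24 of the 25 and for 6.92% of all genes. With doxycycline in both tissues, 24 of the 25 did not overlap (30 of all 33), against 9.5% of all genes, and 0 were called by edgeR, against 0.0485%. There, 23 of the 25 had an unadjusted p under 0.05, against 10.9% of all genes in either direction, and the Wald test of DESeq2 called 17 of the 25, against 1.46% of all genes called higher. Without secondary disease replicate 4, a library outside both groups that counts towards the common estimate of spread, 10 of the 25 were called in the controls and 10 with doxycycline (16 and 12 of all 33), while 0.869% and 1.7% of all genes were called higher. The median log2 fold change of the 25 genes was 3.15 in controls and 2.85 with doxycycline.

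**Figure D2:**
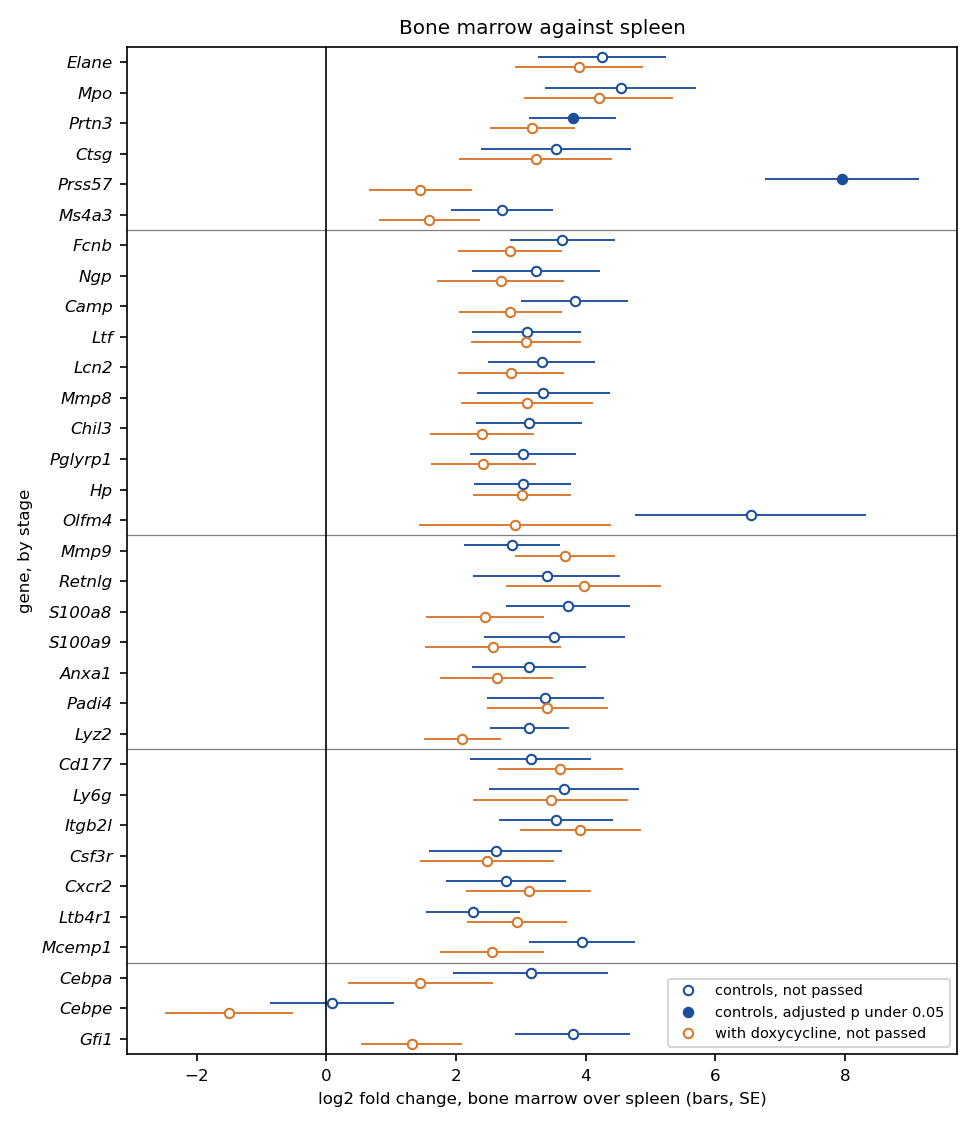
Log2 fold change of bone marrow over spleen for each gene (rows, by stage), in controls (blue) and with doxycycline (orange). Bars are standard errors and filled points passed an adjusted p under 0.05. In the controls the points lie right of 0, with Cebpe at 0.09. Prss57 and Olfm4 had 0 or 1 count in each spleen control, so their distance from 0 is no bound.

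Primary granule genes were at low levels in all spleen libraries. Mpo, which encodes myeloperoxidase (chromosome 11, 87793581 to 87804413), had 57.8, 18.9 and 44.9 CPM in bone marrow control and 23.3, 29.0 and 14.9 CPM in bone marrow doxycycline. It had 3.83, 0.215 and 1.23 CPM in spleen control, 0.931, 0.439 and 2.31 CPM in spleen doxycycline, and 1.16, 0.469, 0.156 and 5.90 CPM in secondary disease. Every bone marrow library at 7 days lay above every spleen library, and secondary disease replicate 4 lay above the spleen groups. The log2 fold change of Mpo between the tissues, averaged over treatments, was 4.37 ± 0.82 (SE; edgeR adjusted p = 0.0325).

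Elane, the gene of neutrophil elastase (chromosome 10, 79886247 to 79888215), had 19.2, 6.11 and 12.8 CPM in bone marrow control and 6.91, 8.95 and 3.40 CPM in bone marrow doxycycline. Its spleen levels were 1.01, 0.129 and 0.835 CPM in controls and 0.289, 0.279 and 0.725 CPM with doxycycline. In secondary disease it was at 0.248 CPM in replicate 1 and at 0 in the other libraries, where 3 counts would be 0.117 to 0.26 CPM. Bone marrow and spleen did not overlap, and the log2 fold change averaged over treatments was 4.07 ± 0.70 (adjusted p = 0.0223). Prtn3, which encodes proteinase 3 and lies 3.07 kb from Elane on chromosome 10, had the smallest p of the 33 genes. Prtn3 had 16.8, 5.61 and 9.93 CPM in bone marrow control against 1.54, 0.215 and 0.565 CPM in spleen control. Its log2 fold change was 3.80 ± 0.67 in controls (adjusted p = 0.0393) and 3.49 ± 0.47 averaged over treatments (adjusted p = 0.0102). The call of Prtn3 in controls was lost without any 1 of the bone marrow control libraries or of spleen control replicates 2 and 3, with adjusted p up to 0.263.

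Prss57, a serine protease gene of the same cluster 83.5 kb from Prtn3, was at 1.51, 0.572 and 1.62 CPM in bone marrow control and at 0 in the 3 spleen controls. Set against a floor of 3 counts per library, this was at least 11.0-fold higher in bone marrow. Prss57 reached the filter in 4 bone marrow and 0 spleen libraries, so its call in the controls supports nothing, and it was lost when any 1 of the 6 control libraries was left out. In spleen doxycycline it had 0.257, 0.0399 and 0.0906 CPM, of which only replicate 1 exceeded the floor of its library. Ctsg (cathepsin G) and Ms4a3, a membrane protein of granulocyte and monocyte progenitors, showed the same order with 5.04 ± 1.53 and 3.51 ± 0.458 CPM in bone marrow control against 0.424 ± 0.330 and 0.534 ± 0.0325 CPM in spleen control (mean ± SD, n = 3). Neither was called averaged over treatments (adjusted p = 0.094 and 0.11). Exons of Mpo, Prtn3 and Prss57 share bases with genes on the opposite strand (Gm11505, Plppr3 and Fstl3), and without strand in the counting such reads cannot be told apart. The same holds for Cebpa (Gm45091) and Gfi1 (A430072P03Rik) among the factors. Exons of the secondary granule gene Olfm4 share bases with Gm6999 on the same strand.

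The 10 secondary granule genes had a summed level of 636 to 883 CPM in bone marrow control and 36.4 to 129 CPM in spleen control. Ngp, encoding neutrophilic granule protein (chromosome 9, 110419747 to 110423012), had 365, 266 and 244 CPM in bone marrow control, 116, 179 and 93.0 CPM in bone marrow doxycycline, 50.6, 14.7 and 27.3 CPM in spleen control and 7.06, 7.90 and 45.1 CPM in spleen doxycycline. The spleen groups overlapped one another and lay below both bone marrow groups. Its log2 fold change of 2.97 ± 0.70 averaged over treatments did not pass (adjusted p = 0.0816). Ltf, the lactoferrin gene, had 225, 164 and 169 CPM in bone marrow control against 37.7, 9.06 and 18.9 CPM in spleen control, and with doxycycline 76.9, 132 and 60.4 CPM against 2.15, 5.42 and 24.5 CPM. Ltf was called (3.08 ± 0.60, adjusted p = 0.0354), as was Camp, the gene of the cathelicidin antimicrobial peptide (3.33 ± 0.57, adjusted p = 0.0223). Camp stood at 77.7, 80.4 and 66.5 CPM in bone marrow control and at 8.44, 2.75 and 4.59 CPM in spleen control.

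The order of the 5 group means was the same for each secondary granule gene but Olfm4. Lcn2, encoding the iron-siderophore binder lipocalin 2, had 64.6 ± 11.0 CPM in bone marrow control and 6.47 ± 3.94 CPM in spleen control. Fcnb (ficolin B), Hp (haptoglobin) and Lcn2 were called with log2 fold changes of 3.23 ± 0.57, 3.03 ± 0.53 and 3.08 ± 0.58 (adjusted p = 0.0233, 0.0233 and 0.0325). Chil3, a chitinase-like protein, and Pglyrp1, a peptidoglycan binder, were also called, whereas Mmp8 (neutrophil collagenase) and Olfm4 were not. Olfm4 was close to the detection limit outside bone marrow, with 1 spleen control library above 0. For all 10 genes of the stage, the bone marrow libraries at 7 days lay above the spleen libraries of 7 days. Among all genes tested this held for 187 of 14435. The 10 include Olfm4, which passed the filter only through bone marrow, and the other 9 would have passed on spleen alone.

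**Figure D3:**
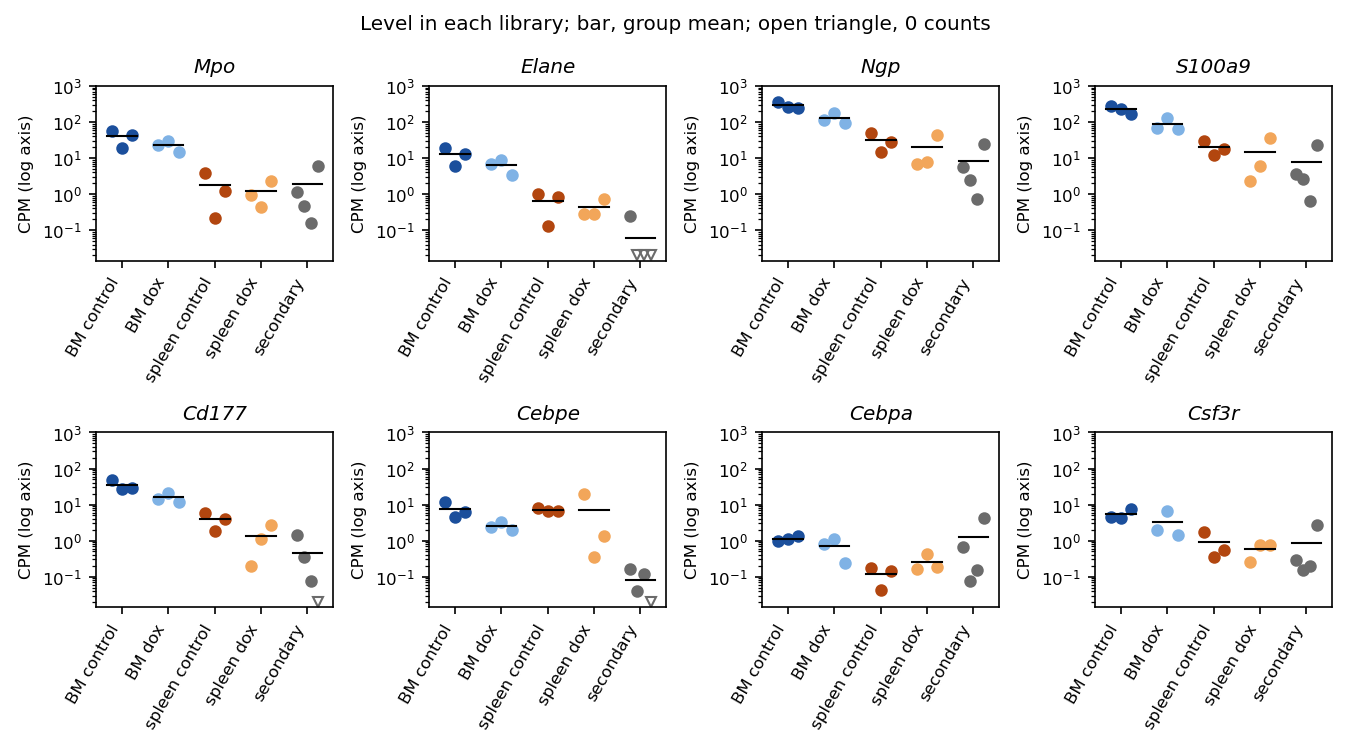
CPM on a log axis of 8 members in each library, by group. Bars are group means and open triangles are libraries with 0 counts. Mpo, Elane, Ngp, S100a9 and Cd177 step down from bone marrow to spleen, Csf3r less so, while Cebpe has all 3 spleen controls between 6.74 and 7.79 CPM and Cebpa peaks at 4.16 CPM in secondary disease replicate 4.

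Genes of the late stage held the most abundant transcripts per length. S100a9 and S100a8, whose proteins pair as calprotectin, had deposited TPM values (transcript abundance corrected for length and library total) of 1130 ± 226 and 1090 ± 226 in bone marrow control (n = 3), followed by Ngp at 385 ± 68.8 TPM. S100a9 (chromosome 3, 90692632 to 90695721) had 287, 223 and 171 CPM in bone marrow control, 69.1, 130 and 62.4 CPM in bone marrow doxycycline, 29.5, 12 and 18.0 CPM in spleen control and 2.31, 6.06 and 35.7 CPM in spleen doxycycline. The tissues did not overlap, but spleen doxycycline replicate 3 was above every spleen control. S100a8, 22.6 kb away, was called between the tissues (3.09 ± 0.66, adjusted p = 0.0491) and S100a9 was not (3.05 ± 0.76, adjusted p = 0.0963), a pair of values that differ by less than their errors.

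Lyz2, the lysozyme gene of granulocytes and monocytes, had 132, 135 and 113 CPM in bone marrow control and 24.8, 6.44 and 12.3 CPM in spleen control, and 42.6, 80.8 and 35.0 CPM against 4.05, 8.22 and 25 CPM with doxycycline. It was called averaged over treatments (2.61 ± 0.42, adjusted p = 0.0197). Its near-identical neighbour Lyz1 can take a share of its reads. Mmp9, which encodes gelatinase B, the namesake enzyme of the last granules to form, had 25.9, 20.2 and 20.6 CPM in bone marrow control, 6.31, 18.2 and 6.24 CPM in bone marrow doxycycline, 5.19, 1.68 and 2.28 CPM in spleen control and 1.12, 0.439 and 0.815 CPM in spleen doxycycline. Mmp9 was called between the tissues (3.27 ± 0.53, adjusted p = 0.0197), and in spleen its doxycycline libraries lay below all controls. Padi4, the enzyme that citrullinates histones, had 3.40 ± 0.65 (adjusted p = 0.0325) but is 1 of the 8 that passed the filter only through bone marrow. Retnlg and Anxa1 (annexin A1) were not.

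Surface genes also stepped down between the tissues. Cd177, a neutrophil adhesion antigen, had 46.7, 27.5 and 28.7 CPM in bone marrow control, 14.3, 21.6 and 11.8 CPM in bone marrow doxycycline, 5.72, 1.89 and 3.98 CPM in spleen control and 0.193, 1.08 and 2.67 CPM in spleen doxycycline. Its tissue difference was called (3.38 ± 0.67, adjusted p = 0.0371). Itgb2l, an integrin beta 2-like gene, and Mcemp1 had 3.73 ± 0.64 and 3.25 ± 0.57 (adjusted p = 0.0223 and 0.0233), again with the filter passed through bone marrow alone. Ltb4r1, the leukotriene B4 receptor, was called with 2.60 ± 0.53 (adjusted p = 0.04). Csf3r, the receptor of granulocyte colony-stimulating factor, had 4.65, 4.14 and 7.5 CPM in bone marrow control and 1.76, 0.344 and 0.565 CPM in spleen control. Its bone marrow doxycycline libraries reached down to 1.46 CPM and overlapped spleen control, and it was not called (2.55 ± 0.73, adjusted p = 0.156). Cxcr2, the chemokine receptor that directs neutrophils into blood, and Ly6g, the antigen used to identify mouse neutrophils, were not called either (adjusted p = 0.0666 and 0.0789). Ly6g belongs to a family of similar genes, among which reads can be split.

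The 3 transcription factors did not share 1 pattern. Cebpa, needed to enter the granulocyte lineage, had 0.979, 1.11 and 1.32 CPM in bone marrow control against 0.176, 0.043 and 0.147 CPM in spleen control, and Gfi1 had 1.63, 0.357 and 1.24 CPM against 0.176, 0 and 0.0491 CPM. These levels are near the value of a few counts in spleen, and neither gene was called (adjusted p = 0.303 and 0.0755 averaged over treatments). Cebpe, needed to make secondary granules (chromosome 14, 54710360 to 54712174), differed from the genes of those granules. It had 12.1, 4.39 and 6.22 CPM in bone marrow control and 7.79, 6.74 and 6.78 CPM in spleen control, so the tissues overlapped, with a log2 fold change of 0.09 ± 0.96 (adjusted p = 1). In bone marrow doxycycline it had 2.43, 3.35 and 1.93 CPM, below all controls, and in spleen doxycycline 20.1, 0.359 and 1.31 CPM.

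The library with the highest Cebpe, spleen doxycycline replicate 1, was the one whose erythroid marker sum was close to the controls, and in it the median gene of the 33 was at 1.88% of its bone marrow control mean. Without this library, Cebpe was lower with doxycycline in spleen by a log2 fold change of −3.09 (edgeR adjusted p = 0.0188). Replicates 2 and 3, which then remain, also differed from each other, for example in Il1rl1 (143 and 1600 CPM). With replicate 1, the value for Cebpe was 0.04 ± 0.96 (adjusted p = 0.995). Cebpe was thus the only 1 of the 33 genes called for doxycycline in spleen in any alternative that left out a library, and it was called in that one only. Averaged over treatments, its tissue difference was −0.70 ± 0.69 (adjusted p = 0.885), and 0.86 without that library.

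Doxycycline in bone marrow gave a negative log2 fold change for each of the 33 genes, from −0.52 (Gfi1) to −1.71 (Prss57), with a median of −1.19 beside −0.02 over all genes tested. Gfi1 and Prss57 are among the 8 that passed the filter only through bone marrow. The doxycycline libraries lay below all controls for 25 of 33 genes, against 24.6% of all genes tested. Among the 25 that would have passed the filter on spleen alone, this held for 19. None passed, however: 0 of 33 were called lower by edgeR against 2.61% of all genes, and DESeq2 called 0. An unadjusted p under 0.05 was found for 2 (Prss57 and Lyz2), of which 1, Lyz2, would have passed the filter on spleen alone, against 21.9% of all genes. When the model held the 6 bone marrow libraries alone, edgeR called 23 lower (17 of the 25 that would have passed on spleen alone), but also 18.6% of all genes. Lyz2 was at 127 ± 11.8 CPM in controls and 52.8 ± 24.6 CPM with doxycycline, a log2 fold change of −1.26 ± 0.57 (adjusted p = 0.212). Ngp (−1.18 ± 0.92, adjusted p = 0.53), S100a9 (−1.38 ± 1.00, adjusted p = 0.489), Mpo (−0.86 ± 1.00, adjusted p = 0.701) and Cd177 (−1.11 ± 0.86, adjusted p = 0.525) had errors close to their size.

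In spleen the doxycycline difference had a smaller median and was less even, while the interaction described below called 0 of 33 genes. The median gene stood at 1.88% and 3.15% of its bone marrow control mean in spleen doxycycline replicates 1 and 2. In replicate 3 it stood at 13.2%, within the 4.91% to 16.3% of spleen control. The median log2 fold change was −0.63 beside 0.02 over all genes, 28 of 33 were negative, and 3 genes (Mmp9, Padi4 and Ltb4r1) had all doxycycline libraries below all controls, against 10.7% of all genes tested. By edgeR 0 were called lower, against 0.173% of all genes, 3 had an unadjusted p under 0.05 in either direction (Prss57, Mmp9 and Gfi1) against 12.4% of all genes, and DESeq2 called 0. The log2 fold change was −1.93 ± 0.73 for Mmp9 (adjusted p = 0.269) and −1.59 ± 0.75 for Ltb4r1 (adjusted p = 0.407). S100a8 (−0.18 ± 0.87) and S100a9 (−0.44 ± 1.00) were near 0, since spleen doxycycline replicate 3 held 33.2 and 35.7 CPM of them and the other libraries 2.18 to 6.06 CPM.

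**Figure D4:**
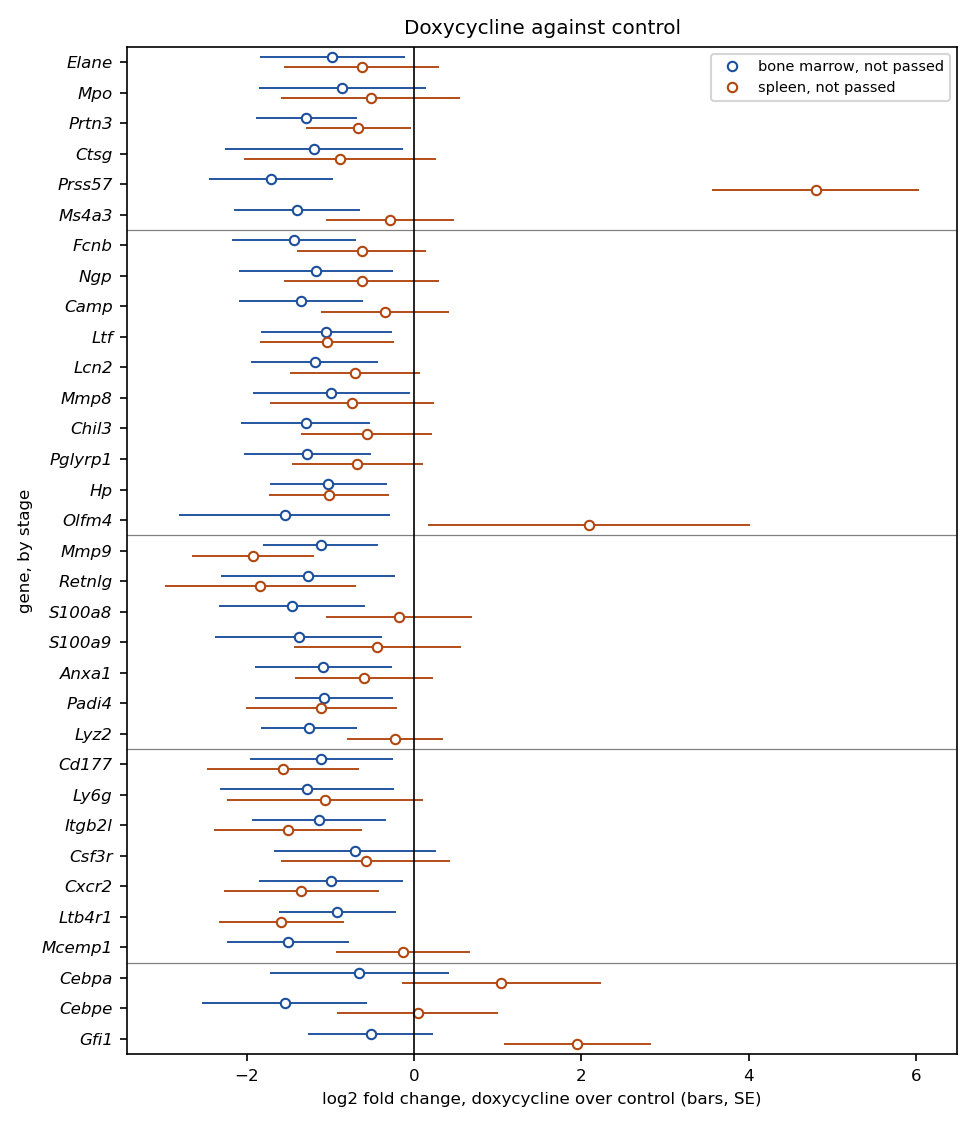
Log2 fold change of doxycycline over control for each gene (rows, by stage), in bone marrow (blue) and spleen (red). Bars are standard errors, and no point passed an adjusted p under 0.05. The bone marrow points lie left of 0 between −0.52 and −1.71, while the spleen points spread from −1.93 (Mmp9) to positive values for Prss57, Olfm4, Gfi1, Cebpa and Cebpe.

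Whether the doxycycline response differed between the tissues was tested with an interaction term. By edgeR 0 of 33 genes passed, against 0.0485% of all genes called in either direction, 2 had an unadjusted p under 0.05 (Prss57 and Gfi1) against 7.63% of all genes, and DESeq2 called 0. The difference, spleen minus bone marrow, had a median of 0.49 on the log2 scale, with 0.34 ± 1.46 for Mpo, 0.55 ± 1.30 for Ngp, 0.94 ± 1.41 for S100a9 and −0.46 ± 1.23 for Cd177. Errors of this size leave differences of several fold undetectable in these libraries.

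Secondary disease had the lowest levels of most of the genes. Against spleen control, 3 of 33 were called lower, against 1.28% of all genes tested, and 17 had all 4 secondary disease libraries below the 3 controls, against 12.4%. The genes called were Cebpe (−6.24 ± 1.15, adjusted p = 0.014), Hp (−3.38 ± 0.74, adjusted p = 0.033) and Chil3 (−3.44 ± 0.80, adjusted p = 0.0428). Leaving out single libraries gave 0 to 4 calls: 0 without spleen control replicate 2 or secondary disease replicate 2, and 1 without spleen control replicate 1 or 3 or secondary disease replicate 3. The cohort, the length of treatment and doxycycline differ together between these groups and cannot be told apart.

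Cebpe had 0.166, 0.0391, 0.117 and 0 CPM in secondary disease, all below every other library, the lowest of which had 0.359 CPM. Against spleen doxycycline it was again called lower (−6.28 ± 1.15, adjusted p = 0.0265), as 1 of 33 genes against 0.707% of all genes. That value was −3.16 (adjusted p = 0.0146) without spleen doxycycline replicate 1. The call was lost without secondary disease replicate 1, 2 or 3 (adjusted p = 0.0675, 0.0788 and 0.0838), and 5 of the 33 genes were called lower without spleen doxycycline replicate 1, against 4.91% of all genes. The comparisons with spleen control and spleen doxycycline share the secondary disease libraries. Hp had 0.331, 0.313, 0.0781 and 0 CPM in secondary disease against 3.34, 0.945 and 1.94 CPM in spleen control, and Chil3 had 1.37, 1.02, 0.0781 and 0.52 CPM against 12, 4.47 and 8.35 CPM.

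The 4 secondary disease libraries did not resemble one another. Replicate 4 had 24.8 CPM of Ngp, 23.8 CPM of S100a9, 5.90 CPM of Mpo, 4.16 CPM of Cebpa and 2.69 CPM of Csf3r, all above the other 3 libraries, but 0 counts of 16 genes, among them Elane, Cd177 and Mmp9. Replicate 3 was the lowest of the group for 16 genes and had 0 counts of 11. Without replicate 4, the log2 fold change of Mpo against spleen control was −1.55, with it 0.04 ± 1.01. Cebpa, with 0.662, 0.0782, 0.156 and 4.16 CPM in secondary disease, was not called against spleen control (3.25 ± 1.18, adjusted p = 0.191).

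**Figure D5:**
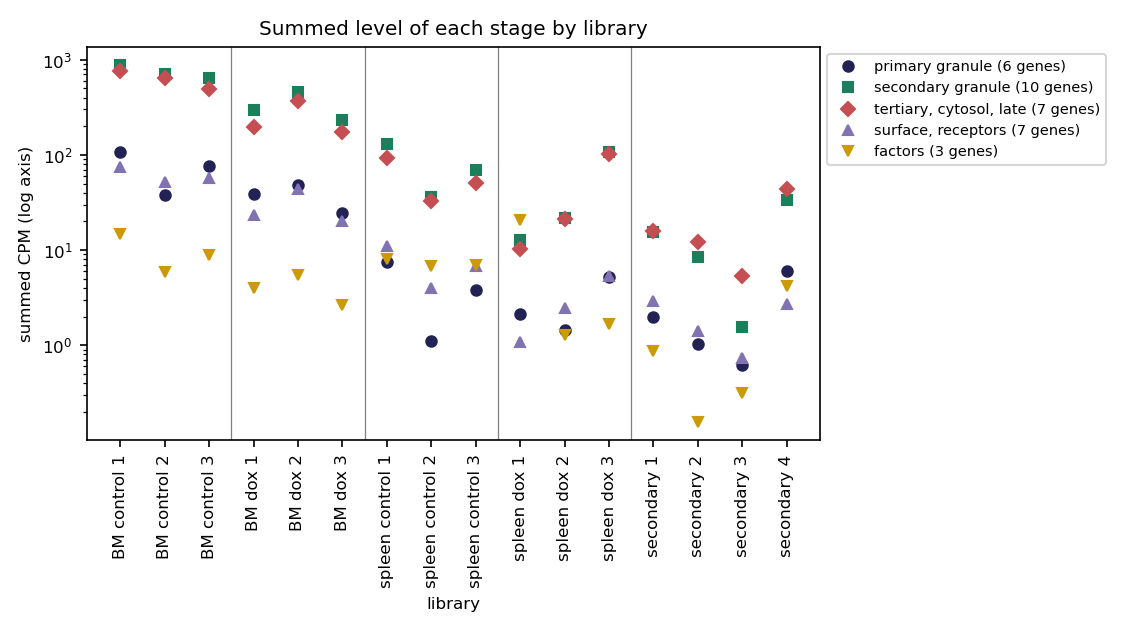
Summed CPM (log axis) of the genes of each stage in every library. Primary, secondary, late and surface sums run roughly parallel across the bone marrow and spleen libraries, while the sum of the 3 factors, mostly Cebpe, stays between 6.78 and 8.14 CPM in spleen control and reaches 20.5 CPM in spleen doxycycline replicate 1.

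Of 45 other genes of granulocyte function, 41 were tested. Averaged over treatments, 7 were called higher in bone marrow than in spleen, against 0.54% of all genes tested, and 0 lower. How many of the 41 would have passed the filter on spleen alone was not counted. The 3 with the smallest p were Lrg1, a secreted glycoprotein (3.16 ± 0.44, adjusted p = 0.0102), Wfdc21 (3.43 ± 0.54, adjusted p = 0.0165) and the hexokinase gene Hk3 (2.47 ± 0.43, adjusted p = 0.0223). The median log2 fold change of the 41 genes was 1.01, smaller than the 3.09 of the granulocyte genes, and differed between sublists. It was 2.15 for other granulocyte products, 2.09 for chemoattractant receptors and 0.93 for adhesion and Fc receptors. It was 0.72 for myeloid transcription factors, 0.18 for the NADPH oxidase and −0.23 for granule processing genes and inhibitors. In the last sublist 5 of 6 genes were negative. Against spleen control, secondary disease had 2 of 41 called lower, against 1.28% of all genes tested. These were Itgb2, the shared chain of the leukocyte integrins (−1.83 ± 0.39, adjusted p = 0.0303), and Lrg1 (−2.84 ± 0.61, adjusted p = 0.0304). In the other comparisons 0 of 41 were called by edgeR. The median for doxycycline in bone marrow was −1.04.

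Markers of other cell types were examined beside these results. Summed over 14 monocyte and macrophage markers, the level was 37.0 to 70.6 CPM in bone marrow control, 31.6 to 64.5 CPM in bone marrow doxycycline, 14.3 to 29.2 CPM in spleen control and 17.8 to 50.5 CPM in spleen doxycycline. In the controls 3 of the 14 were higher in all bone marrow than in all spleen libraries, against 16.5% of all genes tested. In the other direction it was 1 of the 14, against 2360 of 14435 genes. Averaged over treatments 1 of the 14 was called higher, against 0.54% of all genes. It was Ly6c2, a monocyte marker that granulocytes can also carry (2.81 ± 0.58, edgeR adjusted p = 0.04). Marco was at 0 in all bone marrow doxycycline libraries. The 9 erythroid markers summed to 2320 to 4330 CPM in bone marrow control and 48100 to 60800 CPM in bone marrow doxycycline, and to 2930 to 5000 and 5700 to 86800 CPM in the same spleen groups. The 8 mast cell, basophil and eosinophil markers summed to 568 to 696 CPM in bone marrow control, 505 to 538 CPM in bone marrow doxycycline, 606 to 663 CPM in spleen control and 102 to 1220 CPM in spleen doxycycline. Most of this sum was the single gene Ms4a2, with 573, 627 and 491 CPM in bone marrow control. Tpsb2 was at 0 in all 16 libraries. Mcpt8, a basophil protease, and Epx, eosinophil peroxidase, were at 0 in the 6 spleen libraries at 7 days, whereas in bone marrow Mcpt8 was at 0.107 to 0.7 CPM and Epx at 0 to 8.56 CPM. Fcer1a was called lower with doxycycline in bone marrow (−4.25 ± 1.12, adjusted p = 0.0376). The 6 megakaryocyte and platelet markers summed to 301 to 379 CPM in bone marrow control, 76.5 to 109 CPM in bone marrow doxycycline and 332 to 409 CPM in spleen control. Nearly all of this was Itga2b (359, 281 and 358 CPM in bone marrow control, 89.2, 106 and 74.7 CPM in bone marrow doxycycline). Gp1bb was called lower with doxycycline in bone marrow (−6.29 ± 1.18, edgeR adjusted p = 0.0115). The 6 stroma and endothelium markers summed to 107 to 126 CPM in bone marrow control, 200 to 206 CPM in bone marrow doxycycline and 79.5 to 84.7 CPM in spleen control, with 0 of the 5 tested called in these comparisons. Nearly all of this sum was Cxcl12 (116, 106 and 124 CPM in bone marrow control, 198, 194 and 204 CPM in bone marrow doxycycline). These last 3 sums thus follow mainly 1 gene each and do not measure the cell type. B cell and plasma cell sums (12.5 to 55.2 against 11.9 to 20.8 CPM in the controls) overlapped between the tissues, as did T and NK cell sums (0.897 to 7.16 against 0.301 to 1.19 CPM). The part of these cell types in the granulocyte gene differences was not tested.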

How the data were processed

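The 16 RNA-seq libraries of sorted leukaemia cells fall into 5 groups, taken from the sample titles. The members and gene lists were chosen with earlier results of these data known. The authors deposited expected counts per gene (estimates that need not be whole: 5.8 to 10.8% of values per library were not) and a TPM file per library. Per the submitters' processing notes, STAR, RSEM, Trim Galore, FastQC and MultiQC were used (no versions or roles stated) with the build GRCm38. Strand handling was not stated in the sources used here. Libraries were made after oligo-dT enrichment, per the labels' protocols. All columns of the table belonged to a library, and each of the 16 deposited TPM files correlated best with its own column (lowest r = 0.932). TPM served for this check and for levels between genes, and entered no test.

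Counts were rounded and tested with edgeR 4.0.16 (R 4.3.3; robust quasi-likelihood fit, two-sided) after filterByExpr and TMM scaling, with all 16 libraries in 1 model with a mean per group. Benjamini-Hochberg adjustment ran over the 14435 genes tested, and genes were called at an adjusted p under 0.05. Standard errors are the absolute log2 fold change divided by √F. In 8 comparisons, members called (up to 12) and, per stage, the 2 with the highest mean CPM and the 1 with the smallest p were named. Other genes named were chosen after their values were seen. Replicates differed by more than sampling noise (lowest chi-square per degree of freedom 7.87; 228 to 495 among spleen doxycycline libraries). The floor is 3 counts per library, for counting error only. As alternatives, each library was left out in turn, the model was limited to the groups compared, a replicate block was added, the filter was dropped or set to a mean count of 50, and DESeq2 1.42.0 supplied size factors or its Wald test. The fit was tested on simulated data. Coordinates are 1-based from GENCODE M21 (GRCm38), promoters from RefSeq (GRCm38.p6).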

Additional observations from a re-analysis of the deposited data

Results flagged for a closer look

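Within secondary disease, the only group of 4, 10 of the 33 genes had 1 library far from the other 3 (Dixon's criterion, which chance passes in about 1 in 20, or 5%, of independent groups of continuous values). These genes vary together, and for 7 of the 10 the other 3 libraries held 0 or 1 count each, so the 5% is no guide to their number. Secondary disease replicate 4 stood apart for 5 of them, with Cebpa at 4.16 CPM, Csf3r at 2.69 CPM, S100a9 at 23.8 CPM and Olfm4 at 0.781 CPM above the others, and Gfi1 at 0 CPM below them. Gfi1 had 0 or 1 count in all 4 libraries. Replicate 1 was above the others for Elane (0.248 CPM) and Ctsg (0.0828 CPM), and replicate 2 for Prss57 (0.0391 CPM), Ly6g (0.274 CPM) and Mcemp1 (0.0782 CPM). The values of Ctsg, Prss57 and Mcemp1 are below that of 3 counts in their libraries (0.124 CPM for Ctsg and 0.117 CPM for the others). In S100a9, Csf3r and Cebpa the library that stood apart held 274, 31 and 48 counts, and in the other genes 0 to 9.

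The difference of the doxycycline effect between spleen and bone marrow was largest for Prss57, at 6.51 on the log2 scale. It had the smallest p of the 33 genes (0.000728) and did not pass after adjustment (adjusted p = 0.159). Without spleen doxycycline replicate 2 it was 6.92 (adjusted p = 0.0198). Since Prss57 was at 0 in the 3 spleen controls, this fitted value depends on the prior count and is no bound.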

How the results depend on the processing

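Counts of genes called are given as members of the 33, then all genes tested. As reported they were 2 and 27 for bone marrow against spleen in controls, 0 and 7 with doxycycline, 19 and 102 averaged, 0 and 949 for doxycycline in bone marrow, 0 and 107 in spleen, 0 and 7 for the interaction, 3 and 293 for secondary disease against spleen control and 1 and 134 against spleen doxycycline. With DESeq2 size factors all genes with doxycycline in both tissues came to 18. With no filter the counts were, in this order, 0 and 7, 0 and 2, 1 and 8, 0 and 349, 0 and 10, 0 and 2, 1 and 134, and 0 and 26. More genes tested (28330) raises each adjusted p. With a mean count of at least 50, members fell to 1 in controls and 10 averaged, with fewer members tested, and all genes with doxycycline in both tissues came to 26. The Wald test of DESeq2 gave 27 and 304, 20 and 433, 31 and 498, 0 and 1996, 0 and 698, 0 and 248, 14 and 756, and 4 and 866. With only the groups compared in the model the counts were 31 and 1927, 0 and 0, 32 and 318, 23 and 4929, 0 and 1, 0 and 23, 1 and 404, and 0 and 0. Apart from these models, the cause of the shifts was not tested.

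Replicate numbers did not pair the libraries: over 30 pairs with the same number, the correlation of deviations from group means ran from −0.27 to 0.16 and exceeded 0.1 in 4. With the replicate number as a block, the counts were 9 and 117, 4 and 85, 31 and 318, 0 and 1966, 0 and 374, 0 and 39, 2 and 421, and 1 and 347. With that block Cebpe turned to −0.14 between tissues in controls and −0.88 for doxycycline in spleen. In secondary disease Mpo turned to −1.38 against spleen control and −1.11 against spleen doxycycline, and Csf3r to −1.44 against the latter.

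With 1 library left out, members and all genes called ran from 0 to 16 and 0 to 190 in controls, 0 to 12 and 1 to 1072 with doxycycline, 0 to 32 and 0 to 596 averaged, 0 to 0 and 23 to 2428 for doxycycline in bone marrow, 0 to 1 and 0 to 1364 in spleen, 0 to 1 and 0 to 645 for the interaction, 0 to 4 and 61 to 523 against spleen control and 0 to 5 and 0 to 1336 against spleen doxycycline. Averaged over treatments, 1 of 394 values of named members changed direction. Depth limits Prss57, Olfm4, Gfi1 and Cebpa in spleen, where they had few counts.

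Named members that changed direction with 1 library left out were mostly near 0, and their log2 fold changes then ranged as follows. For Cebpe the range was −0.44 to 0.37 between tissues in controls, −2.06 to 1.62 with doxycycline, −0.99 to 0.86 averaged, −3.09 to 0.6 for doxycycline in spleen and −1.53 to 2.15 for the interaction. For doxycycline in spleen it was −1.33 to 0.72 for Mpo, −2.25 to 0.07 for S100a9, −2.15 to 0.34 for S100a8 and −0.94 to 0.38 for Csf3r. For the interaction it was −0.47 to 1.56 for Mpo, −0.22 to 0.78 for Elane, −0.87 to 1.11 for Ngp, −1.48 to 0.66 for Ltf, −0.87 to 1.46 for S100a9, −0.68 to 1.79 for S100a8, −1.51 to 0.06 for Cd177 and −0.24 to 1.09 for Csf3r. In secondary disease against spleen control it was −1.55 to 1.21 for Mpo and −2.02 to 0.71 for Csf3r, and against spleen doxycycline −1.03 to 1.36 for Mpo, −2.77 to 0.09 for Ngp, −2.66 to 0.8 for S100a9 and −1.44 to 0.71 for Csf3r.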

Other observations

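Stages kept different proportions in single libraries. The summed CPM of secondary granule genes was 18.3 times that of primary granule genes in bone marrow control replicate 2, against 8.33 and 8.25 times in the other bone marrow controls. In that library the primary genes summed to 38.2 CPM, against a median of 77.1 CPM over the 3 controls, while the secondary genes were not low. In spleen control the ratio was 17, 32.5 and 18.4, and in spleen doxycycline 5.95, 15.2 and 20.6. The lowest was 2.5, in secondary disease replicate 3.

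Partner genes mostly kept their proportion. S100a8 divided by S100a9, in CPM, was 0.8 to 0.946 in the 6 bone marrow libraries at 7 days and 0.672 to 0.944 in the 6 spleen libraries. In secondary disease it was 1.06, 0.781, 0.437 and 0.284, the last in replicate 4. Ltf divided by Ngp was 0.616 to 0.737 in bone marrow. It was 0.616 to 0.745 in spleen control, and 0.305 and 0.168 in spleen doxycycline replicate 1 and secondary disease replicate 4. No test was made of these ratios, some of which rest on few counts.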
